A study of Mus musculus with 17 samples.

Results

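The genes examined here encode the core of the small RNA machinery: Drosha, Dgcr8, Dicer1, Ago1, Ago2, Ago3, Piwil2, Mael, Ddx4 and Tdrd1. They were chosen by symbol, by a rule that uses no measured value but with earlier results of these data known, and every row of the expression table that the platform annotation gives to 1 of these symbols was taken, in all 17 embryos. The 10 genes were measured by 11 rows (probe sets) of the 21780 rows that carried exactly 1 gene symbol, because Ago2 had 2 rows, 10429327 and 10429329, which are given separately.

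MicroRNAs are cut from nuclear hairpin transcripts by the Drosha-Dgcr8 complex, trimmed in the cytoplasm by Dicer1 and loaded onto Argonaute proteins, which silence matching messenger RNAs. In mouse oocytes Dicer1 also makes endogenous siRNAs, and the early embryo inherits Dicer1 and Argonaute products from the egg. PIWI-interacting RNAs (piRNAs) follow a separate, Dicer-independent route in the germ line, where PIWI proteins such as Piwil2 work with the Vasa helicase Ddx4, the Tudor protein Tdrd1 and Mael to silence transposable elements.

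Each sample was a single 2-cell embryo of mouse strain 129SVE (129S6/SvEvTac). Its sire was a wild-type male injected daily for 6 weeks with PJ34, a small-molecule inhibitor of poly(ADP-ribose) polymerases, or with saline, and then mated naturally with an untreated wild-type female. The 7 control embryos came from 3 sires (1 embryo of sire A, 3 of B and 3 of D), and the 10 PJ34 embryos from 3 sires (4 of MTM11, 4 of MTM13 and 2 of MTM14). One label field calls the control sires untreated while the others describe saline, and 1 supplementary legend states a treatment period beyond that of the labels and methods. Only the sires were treated, embryos of 1 sire share that father, and nothing in the labels says which embryos share a mother. RNA of each embryo was amplified and hybridized to 1 Affymetrix Mouse Gene array, and the values are RMA signals on the log2 scale, where a difference of 1 is a doubling. Because RNA was amplified and RMA brings all arrays to a common scale, these values do not give the total RNA of an embryo.

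Across the series, array medians lay between 6.12 and 6.23. Oocyte-store transcripts were above the 95th percentile of the olfactory receptor rows (6.25, over 1035 rows) in 7 of 8 rows, genome-activation transcripts in 3 of 3 (3 of the 6 listed genes had a row), and cumulus cell markers in 0 of 6. Spermatid markers passed that level in 2 of 6 rows (Prm2 with a mean of 7.01 and Prm1 with 6.25) and blood markers in 1 of 2 (Slc4a1 with 6.72). The mean of the genome-activation list was between 9.79 and 10.75 in control embryos and between 7.57 and 10.87 in PJ34 embryos. Embryo MTM13-4 was at the low end with Zfp352 at 6.20, so differences without it are given beside some rows, among them those with the smallest p. They are not given for every row that it moved, Ddx4 and Tdrd1 among them.

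The proximal promoters of the germ-line members are shown first, because Mael, Ddx4 and Tdrd1 are known chiefly from germ cells, and their letters can be set beside their levels in the embryo. Each window runs from 250 bases before to 50 bases after the annotated start (RefSeq, GRCm38.p6), is written 5′ to 3′ on the gene's strand, and carries in capitals the E-box CACGTG, a palindrome that reads the same on both strands and is known to be bound by basic helix-loop-helix factors. The windows are chr1:166238695-166238994 on the minus strand for Mael, chr13:112652261-112652560 on the minus strand for Ddx4 and chr19:56825959-56826258 on the plus strand for Tdrd1, the first of its 3 windows in that table.
Mael: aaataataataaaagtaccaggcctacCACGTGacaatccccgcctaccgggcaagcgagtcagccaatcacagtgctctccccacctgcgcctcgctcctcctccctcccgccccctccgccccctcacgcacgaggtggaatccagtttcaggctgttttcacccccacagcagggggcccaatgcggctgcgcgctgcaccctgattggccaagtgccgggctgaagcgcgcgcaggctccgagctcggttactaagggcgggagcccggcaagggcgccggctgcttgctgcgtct
Ddx4: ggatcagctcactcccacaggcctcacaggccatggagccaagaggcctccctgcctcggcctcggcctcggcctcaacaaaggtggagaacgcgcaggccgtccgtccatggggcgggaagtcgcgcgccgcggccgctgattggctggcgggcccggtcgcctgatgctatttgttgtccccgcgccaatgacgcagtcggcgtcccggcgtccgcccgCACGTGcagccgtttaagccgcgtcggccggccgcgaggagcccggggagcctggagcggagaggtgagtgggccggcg
Tdrd1: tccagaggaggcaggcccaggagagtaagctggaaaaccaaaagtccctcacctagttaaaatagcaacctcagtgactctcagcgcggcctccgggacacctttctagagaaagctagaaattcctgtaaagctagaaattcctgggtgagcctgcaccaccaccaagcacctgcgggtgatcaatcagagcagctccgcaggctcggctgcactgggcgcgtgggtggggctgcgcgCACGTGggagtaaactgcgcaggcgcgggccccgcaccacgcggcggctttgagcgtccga

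Each of these 3 windows held the motif 1 time, while it was found in 7.15% of the 32851 mouse promoter windows of 300 bases. The motif was chosen after the sequences had been read, so its presence in these 3 windows was settled by that choice. CACGTG itself holds a CpG, and most of the 32851 windows were poorer in CpG than these 3. The 7.15% is therefore no measure of enrichment here. The first windows of the other 5 genes with an entry (Ago1, Ago3, Dicer1, Dgcr8 and Drosha) did not hold these letters, and Ago2 and Piwil2 had no entry. A second motif, CCAAT on either strand, was also searched after the sequences had been read. It was present in 6 of the 8 first windows, including those of Mael and Ddx4, against 37.4% of all windows. All 8 first windows were rich in CpG, with an observed over expected CpG ratio between 0.73 (Tdrd1) and 1.19 (Drosha) against a median of 0.38 over all windows. A match describes the letters only and is not evidence that a factor binds there.

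Signal differed widely among the 10 genes. Dicer1 had the brightest row, with a mean of 11.16 (SD 0.16, n = 17) at the 96.9th percentile of all rows, followed by Mael at 10.71 (SD 0.37) and Drosha at 10.29 (SD 0.29). A middle group held Ddx4 at 8.95 (SD 0.91), Ago3 at 8.81 (SD 0.65), Dgcr8 at 8.52 (SD 0.74) and Tdrd1 at 8.51 (SD 0.54), and the Ago2 rows followed at 7.96 (SD 0.36, row 10429329) and 7.34 (SD 0.15, row 10429327). Piwil2 at 6.30 (SD 0.23) and Ago1 at 5.54 (SD 0.14) had the dimmest rows. Probe sets differ in affinity, so this is an order of signal and not of RNA amount between genes.

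Neighbours in that order overlapped in range over the embryos at every step down to the dimmer Ago2 row, and neighbours were separated beyond their ranges only at the last 2 steps. Dgcr8 and Tdrd1 differed in mean by 0.004, with Dgcr8 brighter in 9 of 17 embryos. Ddx4 was brighter than Ago3 in 8 of 17 embryos. Drosha was brighter than Ddx4 in all 17 embryos, with the largest gap in means (1.34), although their ranges overlapped. The dimmer Ago2 row exceeded Piwil2, and Piwil2 exceeded Ago1, in all 17 embryos with no overlap of their ranges. Counts of embryos above the olfactory receptor level, here and below, use the 95th percentile of the olfactory receptor rows within each embryo. Ago1 was below this level in every embryo, and Piwil2 was above it in 9 of 17. The other 8 genes were above it in all 17 embryos.

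**Figure D1:**
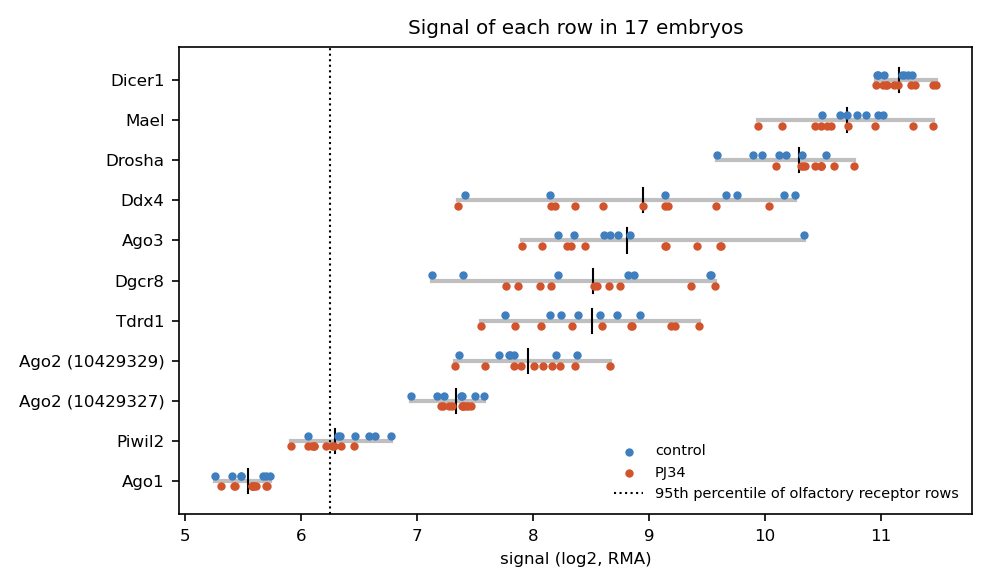
Signal of each of the 11 rows (log2 RMA, horizontal axis), ordered by mean; each point is 1 embryo (blue control, orange PJ34), grey bars span the lowest to the highest embryo, black ticks are means over 17 embryos, and the dotted line is the 95th percentile of the olfactory receptor rows (6.25). Dicer1 sat narrowly around 11.16, Ddx4 stretched from 7.35 to 10.26, and Ago1 lay wholly left of the dotted line.

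The comparison of embryos from PJ34-treated sires with control embryos asked whether inhibition of poly(ADP-ribose) synthesis in the father altered the transcripts of the early embryo. None of the 11 rows passed an adjusted p of 0.1 (Benjamini-Hochberg over all 21780 rows), and the share of all rows that passed was 0%. Drosha was the member with the smallest p and was 0.35 higher on the log2 scale in PJ34 embryos, and Piwil2 came next at 0.27 lower. These were the 2 of 11 member rows with an unadjusted p below 0.05, beside 5.89% of all rows, of which 1.96% were higher and 3.93% lower in PJ34 embryos.

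Drosha, the nuclear RNase III that cuts primary microRNAs, lay between 9.59 and 10.52 in control embryos with a median of 10.12, and between 10.10 and 10.77 in PJ34 embryos with a median of 10.46. The ranges overlapped, but all 10 PJ34 embryos were above the control mean of 10.09, and 2 of them exceeded every control. The difference was 0.35 (95% interval 0.11 to 0.59, adjusted p = 0.814), or 1.27-fold. Without embryo MTM13-4 it was 0.34. With 1 embryo left out it lay between 0.26 (without B-1, the lowest control) and 0.42 (without D-1, the highest control).

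By sire, mean Drosha signal was 9.97, 10.01 and 10.20 for control sires A, B and D, and 10.30, 10.47 and 10.63 for PJ34 sires MTM11, MTM13 and MTM14. The sire means of Drosha thus did not overlap between groups, nor did those of Ddx4 (lower with PJ34) and Tdrd1 (higher with PJ34, by a gap of 0.01 between the nearest sires). These were 3 of the 11 member rows, against 10.2% of all rows with sire means that did not overlap. With 3 sires against 3, an exact permutation test cannot give a two-sided p below 0.10. Taken one sire at a time against all controls, Drosha differed by 0.22 for MTM11 (95% interval -0.09 to 0.52), 0.38 for MTM13 (0.08 to 0.68) and 0.54 for MTM14 (0.16 to 0.93), with adjusted p between 0.688 and 0.976. These intervals, and those by sire below, take embryos as replicates and do not measure the spread between treated sires.

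Dgcr8, the RNA-binding partner of Drosha, spread far more widely. Control embryos lay between 7.13 and 9.54 with a median of 8.81, and PJ34 embryos between 7.77 and 9.57 with a median of 8.54. All but 1 of the PJ34 values fell inside the control range, and the difference of 0.03 (95% interval -0.73 to 0.78) had no stable sign, lying between -0.20 and 0.20 with 1 embryo left out and at -0.065 without MTM13-4. Over the 17 embryos the lowest and highest Dgcr8 values were 5.44-fold apart, against 2.26-fold for Drosha. The interval does not exclude a change of the size measured for Drosha.

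Dicer1, the enzyme shared by the microRNA and endogenous siRNA routes, had the brightest row and a narrow spread. It lay between 10.97 and 11.26 in control embryos with a median of 11.19, and between 10.96 and 11.47 in PJ34 embryos with a median of 11.13. Of the PJ34 embryos, 3 were above and 1 was below all controls. The difference was 0.06 (95% interval -0.11 to 0.23, adjusted p = 0.943).

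**Figure D2:**
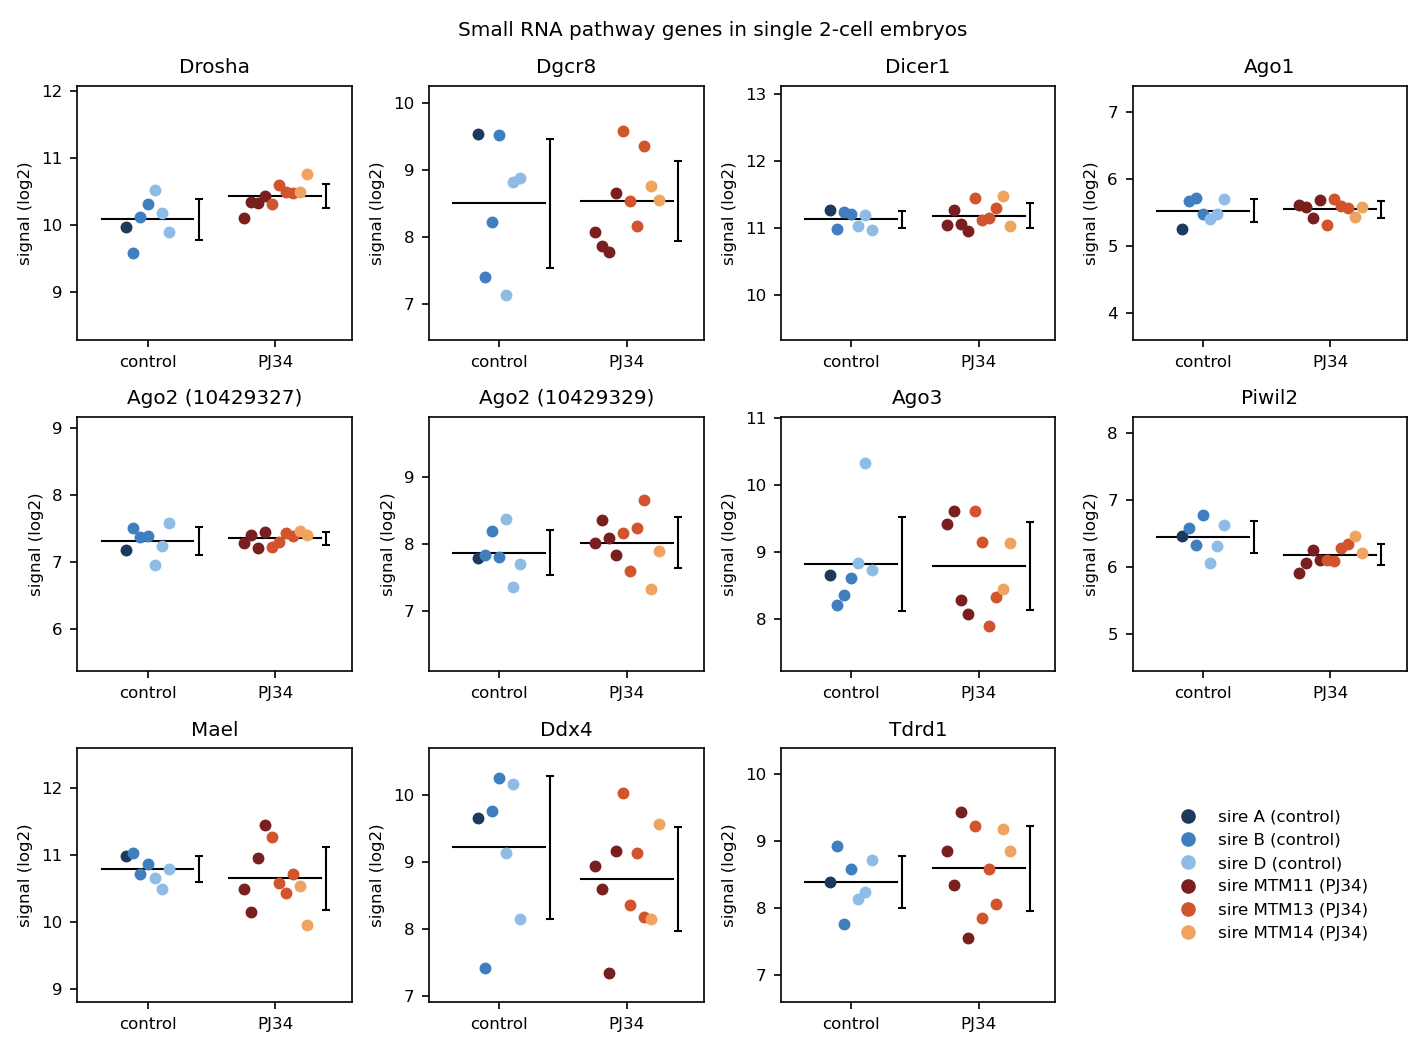
Signal of each row in single embryos (log2 RMA, vertical axis, all panels spanning the same number of log2 units), with control embryos left and PJ34 embryos right; colours mark sires, lines are group means and bars are SDs (n = 7 and 10). Groups overlapped in every panel, Drosha showed all 10 PJ34 points above the control mean line, and Ago3 showed the single control embryo D-2 at 10.34.

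The Argonautes bind the finished small RNA. Ago2, the member with slicer activity, was measured by a row at 6.95 to 7.58 in controls (median 7.38) and 7.20 to 7.46 in PJ34 embryos (median 7.39), and by a second row at 7.36 to 8.38 (median 7.80) and 7.33 to 8.66 (median 8.05). On the first row every PJ34 embryo fell inside the control range, and on the second 1 was above and 1 below it. The differences were 0.04 (95% interval -0.12 to 0.20) and 0.15 (-0.21 to 0.51), the second falling to 0.077 without MTM13-4 and to 0.064 without D-2. Across embryos the 2 rows did not move together (Pearson r = -0.27 around the group means, n = 17 embryos).

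Ago3 lay between 8.21 and 10.34 in control embryos with a median of 8.66, and between 7.91 and 9.62 in PJ34 embryos with a median of 8.79. The control maximum was embryo D-2, while the other 6 controls lay at 8.84 or below. The group difference was -0.02 (95% interval -0.69 to 0.64), and turned to 0.23 without D-2 and to 0.029 without MTM13-4. Ago1, below the olfactory receptor level throughout, was 5.26 to 5.73 in control embryos and 5.31 to 5.71 in PJ34 embryos, a difference of 0.02 (95% interval -0.14 to 0.18).

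Piwil2, the PIWI protein of this set, lay between 6.06 and 6.78 in control embryos with a median of 6.46, and between 5.91 and 6.46 in PJ34 embryos with a median of 6.16. Of the 10 PJ34 embryos, 9 were below the control mean of 6.45 and 1 was below every control, while the ranges overlapped. The difference was -0.27 (95% interval -0.47 to -0.07, adjusted p = 0.823), and -0.29 without embryo MTM13-4. The control mean lay above the olfactory receptor level of 6.25, and the PJ34 mean of 6.19 lay below it. This difference thus stood at a signal where roughly as many embryos were above the olfactory receptor level as below it. By sire against all controls, it was -0.37 for MTM11 (95% interval -0.62 to -0.11), -0.25 for MTM13 (-0.50 to 0.01) and -0.11 for MTM14 (-0.44 to 0.21), none of them passing adjustment (adjusted p between 0.85 and 0.974).

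Mael, a protein of the germ cell nuage needed for transposon silencing, was bright in all embryos. It lay between 10.49 and 11.02 in control embryos with a median of 10.79, and between 9.94 and 11.44 in PJ34 embryos with a median of 10.55. PJ34 embryos exceeded the control range on both sides, with 4 below and 2 above all controls. The group means differed by -0.14 (95% interval -0.52 to 0.24, adjusted p = 0.942), and by -0.060 without MTM14-2 and -0.23 without MTM11-4. The SD was 0.47 in PJ34 embryos against 0.19 in control embryos.

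Ddx4, the germ-line RNA helicase, lay between 7.41 and 10.26 in control embryos with a median of 9.66, and between 7.35 and 10.04 in PJ34 embryos with a median of 8.78. Most PJ34 embryos (8 of 10) were below the control mean of 9.22, but 2 of 7 controls were at 8.15 or below. The difference of -0.47 had the widest 95% interval of the 11 rows, from -1.36 to 0.42 (adjusted p = 0.918), and its size rested on single embryos, at -0.30 without B-3 and -0.77 without B-1. Tdrd1, a Tudor-domain scaffold of the PIWI complexes, lay between 7.76 and 8.92 in control embryos (median 8.39) and between 7.55 and 9.44 in PJ34 embryos (median 8.72). PJ34 embryos reached beyond the controls on both sides, and the difference was 0.20 (95% interval -0.34 to 0.74, adjusted p = 0.942), between 0.094 without B-2 and 0.32 without MTM11-4.

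The spread between embryos was itself compared between the groups. Around the group means, the SD was 0.91 for Ddx4, 0.76 for Dgcr8 and 0.68 for Ago3, which were the 95.5th, 92.7th and 90.1st percentiles of all rows, and 0.16 for Dicer1 at the 40.0th percentile. Spread depended on signal over the whole table, with a median SD of 0.53 among rows with a mean between 8 and 9 and 0.21 among rows between 11 and 12. Among rows with a mean between 8 and 9, Ddx4 was at the 85.9th percentile, Dgcr8 at the 77.5th, Ago3 at the 68.4th and Tdrd1 at the 52.4th. Within their own bands, Ago2 row 10429327 was lowest at the 11.8th percentile, followed by Drosha at the 19.2nd and Dicer1 at the 29.5th.

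**Figure D3:**
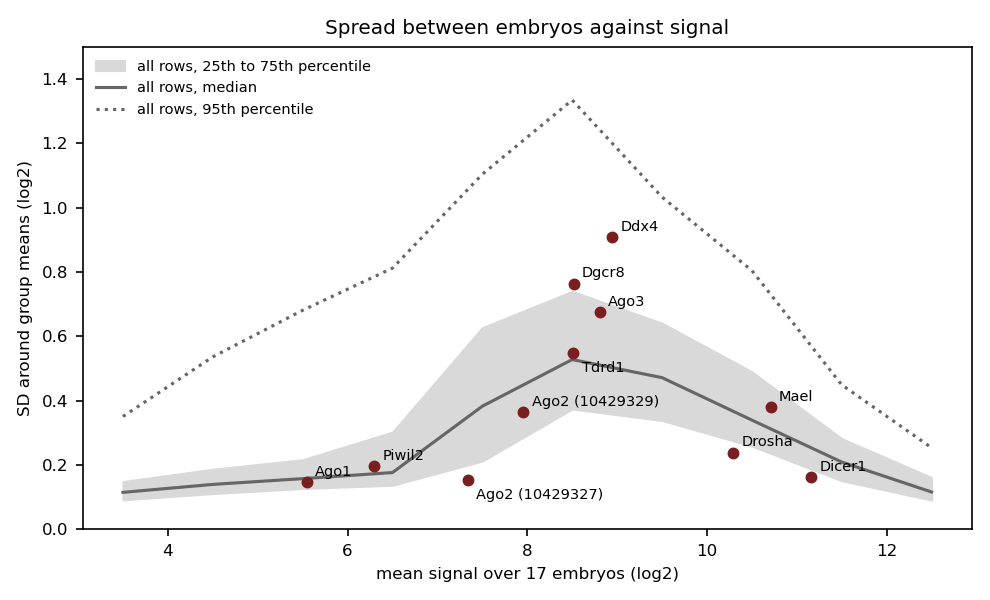
SD of each row around its group means (log2, vertical axis) against its mean signal over 17 embryos (log2, horizontal axis); dark points are the 11 rows, the grey band and lines give the 25th to 75th percentile, the median and the 95th percentile of all rows in steps of 1 log2 unit. Ddx4 at 0.91 and Dgcr8 at 0.76 lay above the grey band, while Drosha at 0.24 and Ago2 row 10429327 at 0.15 lay under it. Dicer1 at 0.16 lay under the median line.

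A Levene-type test with limma on the deviations from the group medians called none of the 11 rows, and 0% of all rows, at an adjusted p of 0.1. At an unadjusted p below 0.05 the counts were 0 of 11 rows and 3.07% of all rows. The 2.49-fold larger SD of Mael in PJ34 embryos did not pass this test either, and Dgcr8 (0.60 against 0.96) and Drosha (0.18 against 0.30) had the smaller SD in PJ34 embryos. Differences between sires within each group were called for none of the 11 rows, against 0.216% of all rows.

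Sire by sire against the 7 controls, none of the 33 member comparisons passed adjustment, against 0.0199% of all comparisons. Of the single PJ34 embryos, each compared with the 7 controls, none of 110 member comparisons was called, against 0.581% of all. The largest deviations were in Ddx4, at -1.87 in MTM11-3, and in Dgcr8, at 1.07 in MTM13-1. The member nearest to a call was Mael, at -0.84 in MTM14-2 (95% interval -1.29 to -0.39, adjusted p = 0.305).

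Each control embryo compared with the other 6 gave the background of such single-embryo calls. Here 1 of 77 member comparisons was called, against 0.397% of all: Ago3 in D-2 stood at 10.34 against a mean of 8.57 in the other controls, a difference of 1.77 (95% interval 1.20 to 2.33, adjusted p = 0.0552) or 3.41-fold. This call was lost when only rows with a mean of at least 6 were tested (adjusted p = 0.10). Ddx4 in control embryo B-1 deviated further, by -2.11, and was not called. The single largest member deviations thus included control embryos.

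The rows whose pattern was most like the 3 most variable members were found by Pearson correlation over the 17 embryos after subtracting each group mean, and are given as a description. For Ddx4 they were Cldn22 (r = 0.82) and Tmem132d (r = 0.79), for Dgcr8 Mrpl42 (r = 0.79) and S100a14 (r = 0.78), and for Ago3 Nfkbib (r = 0.83) and Ctdspl2 (r = 0.79). These are the highest values among all rows and share the same 17 arrays. Among the members themselves, the 55 pairs of rows had a median r of -0.02, between -0.55 for Dicer1 with Ago1 and 0.66 for the Ago2 row 10429327 with Piwil2.

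The wider pathway comprised 50 listed genes, of which 48 had a row (52 rows in all, the 11 included) and Fkbp6 and Spocd1 had none. None of the 52 rows passed the adjusted threshold. Before adjustment 5 rows had a p below 0.05 (Drosha and Pld6 with higher and Piwil2, Rnf17 and Tdrd5 with lower signal after PJ34), or 9.62% beside the 5.89% of all rows. The median difference was -0.05 over the 52 rows and -0.02 over all rows.

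In nuclear processing, 1 of 7 rows (Drosha) had an unadjusted p below 0.05, and the brightest other gene and the one with the smallest p was the helicase Ddx5, at 11.62 with a difference of -0.09 (95% interval -0.24 to 0.06). In the Dicer step, 0 of 4 rows did, and the Dicer partner Tarbp2 differed by 0.01 and 0.07 on its 2 rows. In the Argonaute complex, 0 of 10 rows did, and the scaffold Tnrc6b, the brightest of the other genes at 7.82, had a difference of 0.16 (95% interval -0.07 to 0.39).

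Among genes of small RNA tailing and turnover, 0 of 9 rows had an unadjusted p below 0.05. The differences were negative in 6 of 9 rows, beside 56.4% of all rows, with a median of -0.19. The poly(A) polymerase Tent2 was brightest at 10.06 (difference 0.04 on that row). Its other row, with a mean of 7.31, had a difference of -0.24. The uridylyltransferase Tut4 had the smallest p (-0.19, 95% interval -0.43 to 0.05, and -0.10 without D-2), on a row below the olfactory receptor level in every embryo. Of the 3 PIWI rows, Piwil2 alone had an unadjusted p below 0.05. Piwil1, the brightest other PIWI gene at 6.07, was above the olfactory receptor level in 2 of 17 embryos and differed by 0.11 (95% interval -0.06 to 0.28). Piwil4, below that level in every embryo, differed by 0.05 (95% interval -0.07 to 0.17). Both intervals included 0, so whether the PIWI rows share a direction cannot be told.

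In the piRNA biogenesis group, 14 of 19 rows had a negative difference, as did 56.4% of all rows, with a median of -0.10. Of the 19, 3 had an unadjusted p below 0.05. Rnf17, a Tudor-domain protein of male germ cells, was lower in all 10 PJ34 embryos than the control mean. It lay between 6.07 and 7.86 in control embryos with a median of 6.66, and between 5.47 and 6.53 in PJ34 embryos with a median of 6.00, with 5 PJ34 embryos below every control. The difference was -0.64 (95% interval -1.09 to -0.19, adjusted p = 0.814), the smallest p among the other pathway genes. It was -0.63 without MTM13-4 but -0.44 without B-3, the highest control at 7.86. Its signal was above the olfactory receptor level in 7 of 17 embryos, and its PJ34 mean of 6.04 was below it. Pld6, a mitochondrial protein of primary piRNA formation, was 0.26 higher (adjusted p = 0.843) and Tdrd5 was 0.17 lower (adjusted p = 0.843). By sire against all controls, Pld6 differed by 0.20 for MTM11, 0.14 for MTM13 and 0.63 for MTM14. Its highest embryo was MTM14-1 at 9.57. The brightest other gene of the group, the transcription factor Mybl1 at 10.09, differed by 0.32 (95% interval -0.27 to 0.91), but by 0.015 without control embryo B-3, the lowest at 8.06.

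**Figure D4:**
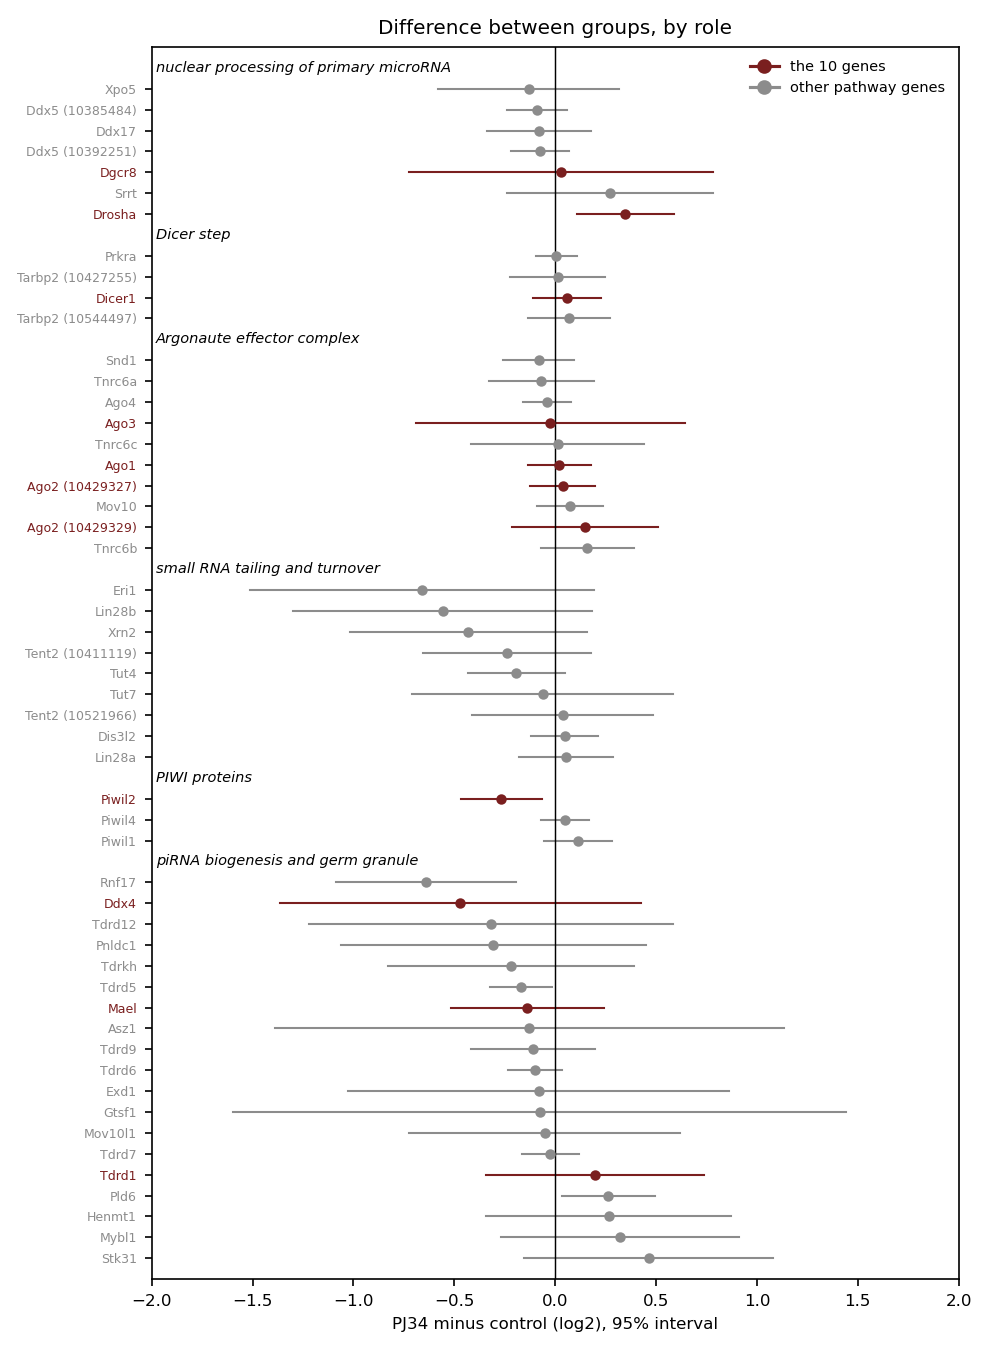
Difference between group means (PJ34 minus control, log2, horizontal axis) with its 95% interval for 52 rows of the pathway, grouped by role; dark points are rows of the 10 genes and grey points other pathway genes. Intervals excluded 0 for Drosha (0.35), Piwil2 (-0.27), Rnf17 (-0.64), Pld6 (0.26) and Tdrd5 (-0.17), before any adjustment for the number of rows tested.

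Of the other pathway genes, 4 of 410 comparisons of a single PJ34 embryo with the controls were called (0.976%, beside the 0.581% of all rows). Of the comparisons of a single control embryo, 0 of 287 were called, beside 0.397% of all rows. Henmt1, the piRNA 3′ methyltransferase, stood at 7.43 in MTM11-1 (adjusted p = 0.0446), the 1 embryo of 17 above the olfactory receptor level, so its distance from the controls is only a bound. The Tudor protein Stk31 stood at 8.33 in MTM11-2 (adjusted p = 0.0515) against a control mean of 6.22, just below that level. Unlike Henmt1, Stk31 was above the olfactory receptor level in 9 of 17 embryos. Xrn2, a nuclear exonuclease, was 2.30 lower in MTM11-4 (6.88 against 9.18, adjusted p = 0.0251), and Pld6 was 0.92 higher in MTM14-1 (9.57 against 8.66, adjusted p = 0.0283). Each call concerned 1 embryo and a different gene, and the difference in calls between PJ34 and control embryos was not tested.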

How the data were processed

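Expression was measured in 17 single 2-cell embryos, grouped by the labels. The authors deposited log2 values made by RMA (background correction, quantile normalization and probe summarization) in Partek; the sources used here do not name versions or a genome build. All 17 columns were used as deposited (0 columns left out). Of 28815 rows, 21780 carried 1 symbol in the platform annotation (1605 several, 5430 none), updated by gene ID (21689 matched); only the 21780 were tested.

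Groups were compared with limma 3.58.1 in R 4.3.3 (lmFit and eBayes, two-sided, Benjamini-Hochberg over all 21780 rows, adjusted p below 0.1, the study's threshold), with embryos as replicates, which share sires. Single embryos and sires were each tested against controls, spread by absolute deviations from group medians, and sires by a moderated F test. The procedures were tested on simulated data. Tables and figures were made with Python 3.11.15 and matplotlib 3.10.9. Array number limits precision.

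The 10 genes and the pathway and marker lists were chosen with earlier results of these data known. Named were all member rows, per role group the other gene with the highest mean and that with the smallest p, any called, and the 2 rows most like each of the 3 most variable members. Pld6 and Tdrd5 were added in the group comparison, and the CACGTG and CCAAT motifs were searched, after the values or sequences were seen.

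Alternatives were other row sets (all rows; mean of at least 6), median-centred arrays, sire as random block, sire means, one-way analysis of variance, and leaving out each embryo or sire.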

Additional observations from a re-analysis of the deposited data

Results flagged for a closer look

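Over 22 groups of values (11 rows in each of the 2 groups), 1 had an end value far from the rest: Ago3 in control embryo D-2, at 10.34 with the next control at 8.84, a gap of 0.706 of the whole control range. Chance flags about 1 in 20 such groups, so 1 of 22 is near that number.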

How the results depend on the processing

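No row of the 10 genes was called between the groups, by sire or for spread under any alternative run. The group difference kept its sign in every alternative for 7 of the 11 rows: Drosha (0.26 to 0.44), Piwil2 (-0.36 to -0.18), Ddx4 (-0.77 to -0.30), Mael (-0.25 to -0.036), Tdrd1, Dicer1 and Ago2 row 10429329. The other 4 reversed. Dgcr8 was -0.18 with means of sires, -0.0612, -0.14, -0.22 and -0.0034 without sires B, D, MTM13 and MTM14, and -0.20 to 0.20 with 1 embryo left out. Ago3 was 0.0106, 0.34 and 0.00841 with means of sires, without sire D and without sire MTM13 (-0.12 to 0.23 with 1 embryo left out). Ago1 was -0.0256 without sire A (-0.0256 to 0.0526), and Ago2 row 10429327 -0.00743 without sire D (-0.0235 to 0.0814). On its brighter row, Tent2 was -0.11, -0.0128 and -0.27 with means of sires and without sires B and MTM11 (-0.0644 to 0.13). Tarbp2 was -0.0149 and -0.11 without sires B and MTM13 (-0.0465 to 0.0719), and -0.0111 on its other row without sire B. Piwil2 for sire MTM14 was -0.23 to 0.00485 with 1 embryo left out, positive without MTM14-2. The cause was not tested.

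Over all rows, the group comparison called 2 rows with a mean of at least 6, with sire as a random block or without sire A, 1 without sire MTM14, and 0 to 2 with 1 embryo left out (2 without A-2; 1 without MTM11-1, MTM11-3, MTM13-4 or MTM14-2). Sires within groups fell from 47 to 9 with a mean of at least 6. Single PJ34 embryos gave 2450 calls over all rows of the table and 574 with a mean of at least 6 (1265 as reported), single controls 1095 and 202 (606), and member calls among single controls fell from 1 to 0 with a mean of at least 6. Calls over 3 sires were 13, and 2 to 149 with 1 embryo left out (149 without MTM14-2, 80 without MTM14-1, 7 or 8 without D-1, D-3, MTM11-3 or MTM11-4, 2 without B-2). Calls for spread were 0 to 6 with 1 embryo left out, 3 to 6 without any 1 control embryo. No paired analysis was possible because embryo numbers only count the embryos of 1 sire. Signals near the olfactory receptor level (Ago1, Piwil2) limit what their rows can show. That level takes olfactory receptor rows as mostly unexpressed, which was not tested, and the brightest of these rows had a mean of 8.62.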
